A study of Mus musculus with 6 samples.

Results

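The lysyl oxidase family was followed as its 5 genes, *Lox*, *Loxl1*, *Loxl2*, *Loxl3* and *Loxl4*, in RNA of the mouse abdominal aorta. They were taken by exact gene name from a table of 55426 genes, each name matched 1 gene, and all 5 passed the filter on low values. The aortas came from 3 male Prdm16SMKO mice (Prdm16 fl/fl, Myh11-CreERT2) and 3 male control mice, which the study describes as wild type with Myh11-CreERT2, all on the C57BL/6J background. The male mice were given tamoxifen by mouth at 75 mg/kg each day for 5 days from 8 to 10 weeks of age, with no separate word on the controls, and RNA was taken 2 weeks later, to ask how aortic transcripts differ once VSMCs (vascular smooth muscle cells) lose PRDM16, a zinc finger transcription regulator. The *Myh11* promoter drives the Cre recombinase in VSMCs, and the transgene sits on the Y chromosome, so only males could be used. Endothelial, adventitial and immune cells of the same aorta are not targeted. Each mouse gave 1 library of polyadenylated RNA.

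Lysyl oxidases are secreted, copper-dependent amine oxidases. They convert the side-chain amine of lysine and hydroxylysine to an aldehyde, and neighbouring aldehydes then condense into the cross-links that make collagen fibrils insoluble and elastin elastic. LOX and LOXL1 are made as proenzymes with a propeptide, and LOXL1 is best known for elastic fibre upkeep. LOXL2, LOXL3 and LOXL4 carry scavenger receptor repeats in place of that propeptide. In the aorta the family sets the strength of the wall, and mice without *Lox* die around birth with aortic aneurysms.

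The 5 members share the catalytic end of the protein, and the stretch that holds its copper-binding histidines shows how the family divides. It is printed below as coding sequence, 5′ to 3′, from GENCODE M21 transcripts on GRCm38, with the 4 histidine codons in capitals.
Loxl1: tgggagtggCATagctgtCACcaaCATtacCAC
Loxl2: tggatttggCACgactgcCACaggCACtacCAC
Loxl3: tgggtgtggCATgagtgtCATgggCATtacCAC
Loxl4: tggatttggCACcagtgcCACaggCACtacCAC
All 4 histidines stand at the same places in every member. *Loxl2* and *Loxl4* share 31 of the 33 bases, *Loxl1* and *Lox* share 32, and the other pairs share 21 to 25. In each member an exon junction cuts the stretch after base 23. In *Loxl1* it lies in exons 3 and 4 on the minus strand (chr9:58294359-58294381 and chr9:58293720-58293729). In *Loxl2* it lies in exons 10 and 11 on the plus strand (chr14:69682316-69682338 and chr14:69689028-69689037), and in *Loxl3* in exons 10 and 11 on the plus strand (chr6:83049995-83050017 and chr6:83050116-83050125). In *Loxl4* it lies in exons 11 and 12 on the minus strand (chr19:42599877-42599899 and chr19:42598807-42598816). The reading frame runs on for 121 codons after the stretch in *Lox* and *Loxl1*, and for 141 to 144 codons in the other three.

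Levels are given as TPM (transcript abundance corrected for length and scaled to a total of 1000000 in each library), so genes can be set side by side. In control aortas *Loxl1* was the most abundant member at 164 ± 37.4 TPM (SD, n = 3), followed by *Lox* at 64.2 ± 3.36, *Loxl3* at 26.1 ± 5.26, *Loxl2* at 18.9 ± 4.42 and *Loxl4* at 2.38 ± 0.318. This order held in 5 of the 6 libraries. The exception was Prdm16SMKO replicate 2, where *Loxl2* (21.26 TPM) stood above *Loxl3* (18.92 TPM). In Prdm16SMKO replicate 3 the levels of this pair were 14.93 and 14.94 TPM, so the order of *Loxl3* and *Loxl2* is not resolved in the knockout group. *Loxl1* exceeded *Lox*, *Lox* exceeded both *Loxl3* and *Loxl2*, and *Loxl4* was lowest in 6 of 6 libraries. Among the 15775 genes tested, those averaging 0.5 TPM or more, the control mean of *Loxl1* was above that of 96.9% of genes and that of *Loxl4* above 27.2%.

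**Figure D1:**
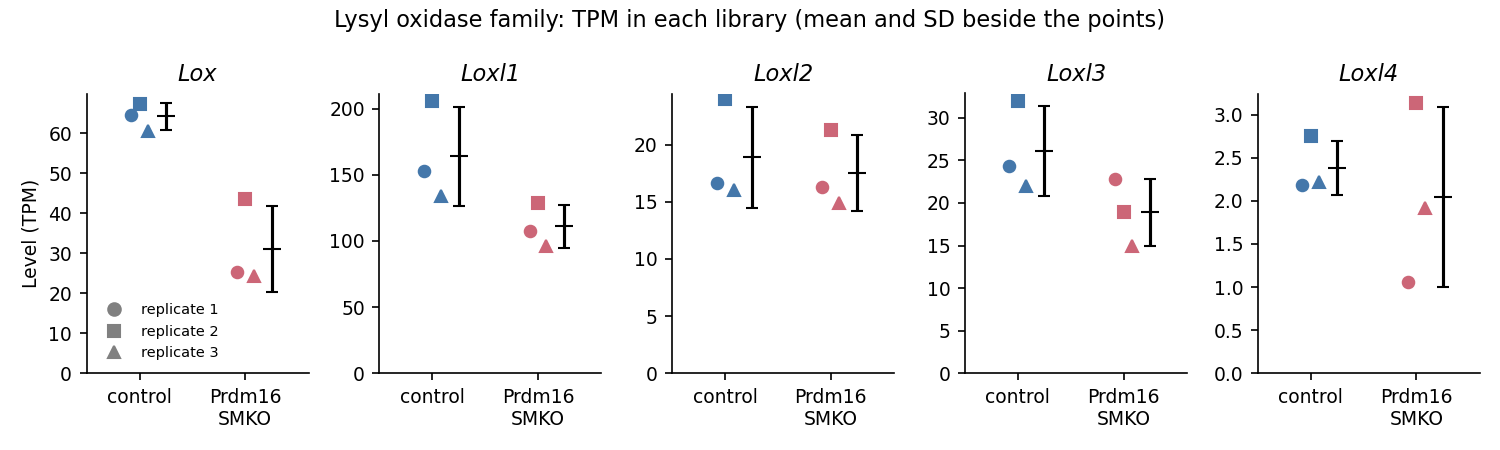
Level of each family member (y axis, TPM, starting at 0, own scale in each panel) in the 3 control and the 3 Prdm16SMKO libraries (x axis). Points are libraries, shaped by replicate number, and the bar beside them is the mean with its SD; the groups are separate for Lox and Loxl1 and overlap for Loxl2, Loxl3 and Loxl4.

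All 5 members had a mean fold change below 0 in Prdm16SMKO aortas, against 45.8% of the genes tested. By limma on log2(TPM + 0.5), with Benjamini-Hochberg adjustment over the 15775 genes, 0 of the 5 passed an adjusted p of 0.05, a threshold that 0.355% of tested genes passed. At an unadjusted p under 0.05, 2 of the 5 were lower (*Lox* and *Loxl1*), against 3.85% of tested genes. This count was 1 without control replicate 2 or without Prdm16SMKO replicate 3 (*Lox* in both) and 3 under 6 alternatives, size factors and quantile normalization among them, which added *Loxl3*. Without Prdm16SMKO replicate 1 the count stayed at 2, but with *Loxl3* in place of *Loxl1*. *Lox* and *Loxl1* were also the members with every knockout library below every control library, against 5.76% of tested genes. A 3 against 3 design cannot give an exact two-sided permutation p below 0.1. Nothing beyond separate mice is stated about the replicates, and the depth of each library is not known from TPM.

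The samples carried the VSMC marker genes at high level (summed TPM over 10 genes of 15436 to 26107 in control and 12040 to 18399 in Prdm16SMKO libraries). *Prdm16* itself was at 33.42, 36.83 and 30.77 TPM in control and 20.75, 27.67 and 14.77 TPM in Prdm16SMKO libraries. Each of the latter was below each control, but the adjusted p was 0.376 (limma, Benjamini-Hochberg). Mitochondrially encoded transcripts made up 15.8 to 27.4% of TPM and a single gene, *CT010467.1*, 13.8 to 28.8%, with both groups overlapping. In whole tissue, fewer cells of a type and less RNA per cell cannot be told apart.

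*Lox* (ENSMUSG00000024529; chr18:52516067-52529867 on GRCm38, minus strand, 7 exons), the founding member that oxidizes both collagen and tropoelastin, had the lowest point estimate of the log2 fold change in the family. It stood at 64.65, 67.30 and 60.62 TPM in the control libraries and at 25.19, 43.48 and 24.40 TPM in the Prdm16SMKO libraries. The controls lay close together (coefficient of variation 5.24%), whereas the knockouts spread more (34.8%) because replicate 2 lay between the other 2 knockouts and the controls. The knockout mean was 48.3% of the control mean. The log2 fold change was -1.09 (SE 0.22, 95% interval -1.60 to -0.58, n = 3 per group), with an adjusted p of 0.108 by limma with Benjamini-Hochberg adjustment and an exact permutation p of 0.1. Of all genes tested, 1.39% had a fold change as low or lower, and *Lox* ranked 151st by p. An antisense gene, *AC161119.1*, shares 1207 bases of genomic span with *Lox* and was at 1.87 TPM or less. The libraries do not mark the strand, so reads from the shared bases cannot be assigned by it.

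*Lox* passed the threshold under 2 of the 17 alternatives. With limma array weights its log2 fold change was -1.04 and its adjusted p 0.0218 (Benjamini-Hochberg). Without Prdm16SMKO replicate 2 its log2 fold change was -1.35, with an adjusted p of 0.0380 (limma, Benjamini-Hochberg). Replicate 2 also had the highest summed markers of fibroblasts (3023 TPM against 1597 to 2226 in the other knockouts), endothelial cells (549 against 335 to 369) and macrophages (241 against 131 to 184). The part of these cells in the *Lox* level was not tested.

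*Loxl1* (ENSMUSG00000032334; chr9:58287738-58313186, minus strand, 7 exons), the member tied to renewal of elastic fibres, stood at 152.68, 205.98 and 133.86 TPM in control and 107.83, 128.61 and 96.52 TPM in Prdm16SMKO libraries. The groups did not overlap, although the highest knockout, replicate 2, came close to the lowest control, replicate 3. The knockout mean of 111 ± 16.3 TPM was 67.6% of the control mean. The log2 fold change was -0.55 (SE 0.20, 95% interval -0.995 to -0.103), with an adjusted p of 0.449 by limma with Benjamini-Hochberg adjustment and an exact permutation p of 0.1.

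*Loxl3* (ENSMUSG00000000693; chr6:83034173-83052562, plus strand, 14 exons), needed for palate and spine development in mice, stood at 24.34, 32.01 and 21.94 TPM in control and 22.79, 18.92 and 14.94 TPM in Prdm16SMKO libraries. The groups overlapped through knockout replicate 1 and control replicate 3. The log2 fold change was -0.46 (SE 0.21, 95% interval -0.94 to 0.02; adjusted p 0.600, limma with Benjamini-Hochberg adjustment), an interval that reaches 0 and also holds the estimate for *Loxl1*. *Htra2*, a mitochondrial protease gene on the opposite strand, shares 1297 bases of genomic span with *Loxl3*. It stood between 15.31 and 25.47 TPM, and the library kit does not mark the strand, so reads from the shared bases cannot be assigned by strand.

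*Loxl2* (ENSMUSG00000034205; chr14:69609068-69695834, plus strand, 14 exons), which cross-links the collagen IV network of basement membranes and is widely studied in fibrosis, stood at 16.64, 23.98 and 16.05 TPM in control and 16.29, 21.26 and 14.93 TPM in Prdm16SMKO libraries. The groups overlapped almost fully, and the highest library of each group was replicate 2. The log2 fold change was -0.10 (SE 0.21, 95% interval -0.58 to 0.38; adjusted p 0.967, limma with Benjamini-Hochberg adjustment). This interval holds the estimate for *Loxl1* but not that for *Lox*. The interval of 1 gene does not test a difference between members, and the ratios within libraries are given below. The log2 fold change of *Loxl2* turned to 0.0796 when control replicate 2 was left out. The antisense gene *Gm27177*, which spans most of *Loxl2*, was at 3.47 TPM or less, and *Gm37513*, also on the opposite strand, at 0.66 TPM or less.

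*Loxl4* (ENSMUSG00000025185; chr19:42593982-42612813, minus strand, 15 exons), the third member with scavenger receptor repeats, was low throughout, at 2.18, 2.75 and 2.22 TPM in control and 1.06, 3.14 and 1.92 TPM in Prdm16SMKO libraries. The knockouts held both the lowest and the highest library, with a coefficient of variation of 51.2% against 13.3% in controls. The log2 fold change was -0.26 (SE 0.32, 95% interval -0.998 to 0.475; adjusted p 0.922, limma with Benjamini-Hochberg adjustment). It turned to 0.0474 without Prdm16SMKO replicate 1, so no direction can be given.

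**Figure D2:**
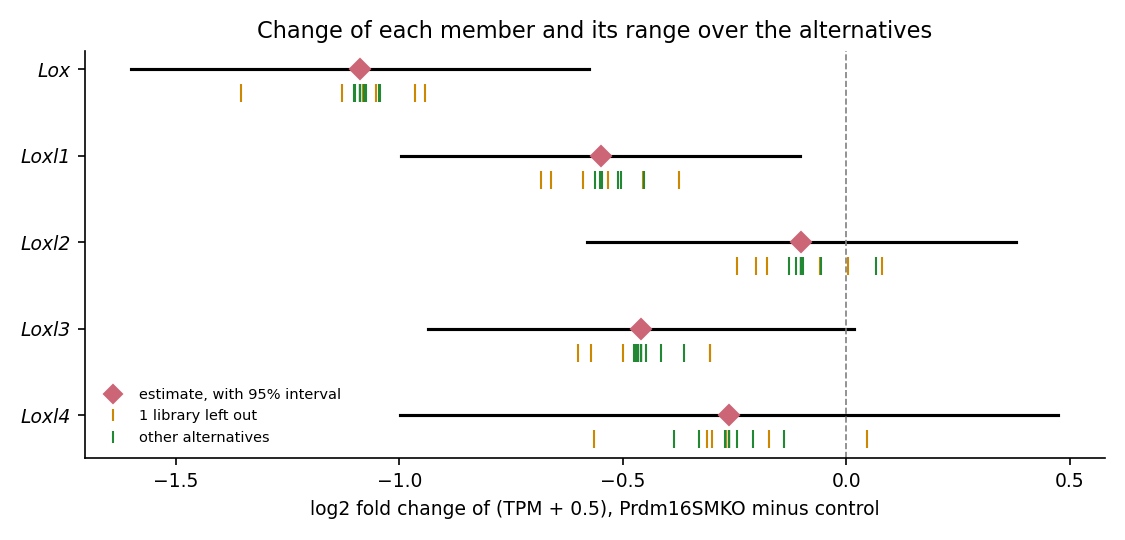
Log2 fold change of (TPM + 0.5), Prdm16SMKO minus control (x axis), for each member (y axis). Diamonds are the estimates and lines their 95% intervals; orange ticks are the estimates with 1 library left out and green ticks those of the other alternatives, all below 0 for Lox, Loxl1 and Loxl3 and on both sides of 0 for Loxl2 and Loxl4.

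Summed over the 5 genes, the family stood at 260, 332 and 235 TPM in control and at 173, 215 and 153 TPM in Prdm16SMKO libraries. Every knockout was below every control, and the knockout mean (180 ± 32.0 TPM) was 65.4% of the control mean (276 ± 50.4 TPM; exact permutation p = 0.1). *Loxl1* alone made up 59.2% of this sum in controls and 61.7% in knockouts, so the sum mostly follows *Loxl1*.

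The make-up of the family was then compared, since a share within a library does not depend on how that library was scaled. *Lox* made up 24.82, 20.27 and 25.83% of family transcripts in control and 14.55, 20.18 and 15.98% in Prdm16SMKO libraries. The mean share was 23.6 ± 2.96% against 16.9 ± 2.93%, a difference of -6.74 points (exact permutation p = 0.1, 0.25 after Benjamini-Hochberg adjustment over the 5 members), and knockout replicate 2 sat just under control replicate 2. *Loxl2* made up 6.39, 7.22 and 6.84% in control and 9.41, 9.87 and 9.78% in Prdm16SMKO libraries. These groups were well apart (6.82 ± 0.418% against 9.68 ± 0.244%, a difference of 2.87 points, exact permutation p = 0.1, adjusted 0.25), although the level of *Loxl2* itself differed little. The shares of *Loxl1*, *Loxl3* and *Loxl4* overlapped between groups (exact permutation p = 0.2, 0.7 and 0.4).

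**Figure D3:**
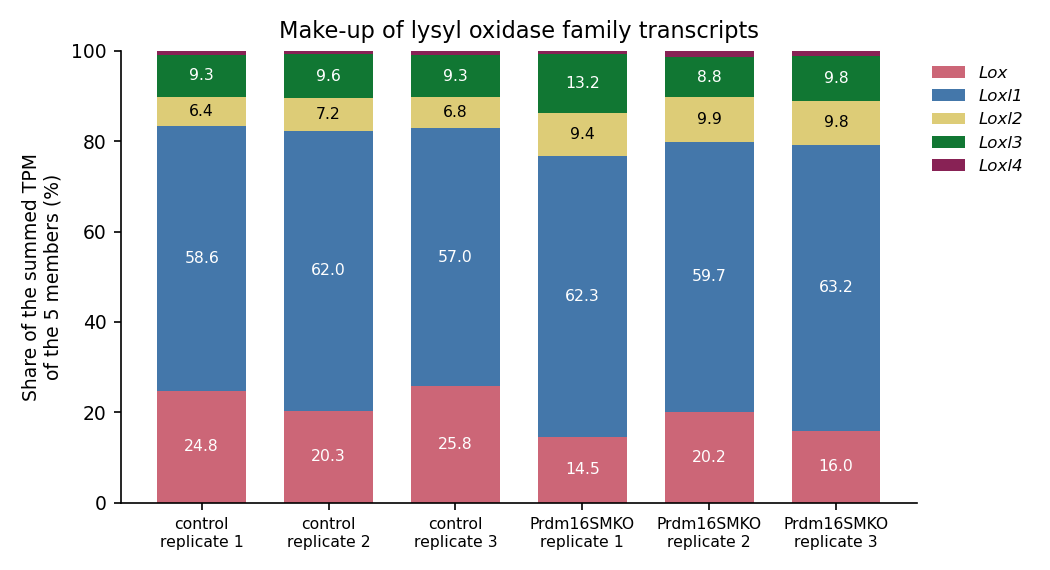
Share of each member in the summed TPM of the 5 members (y axis, %), stacked to 100 for each of the 6 libraries (x axis). The Lox share was 20.3 to 25.8% in controls and 14.5 to 20.2% in Prdm16SMKO libraries, and the Loxl2 share 6.39 to 7.22% and 9.41 to 9.87%; shares under 4% are not lettered.

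Differences between members were also taken pair by pair, as log2 ratios of (TPM + 0.5) within each library. In 3 of the 10 pairs the groups did not overlap. The pairs reuse the same genes, and the share over other gene pairs was not taken, so this count has no background. The ratio of *Lox* to *Loxl2* was 1.76 ± 0.25 in control and 0.77 ± 0.21 in Prdm16SMKO libraries, a difference of -0.99. The ratio of *Loxl1* to *Loxl2* was the steadiest of these, at 3.16, 3.08 and 3.02 in control and 2.69, 2.57 and 2.65 in Prdm16SMKO libraries, a difference of -0.45. The ratio of *Lox* to *Loxl4* differed by -0.83. Each of the 3 had the smallest possible exact permutation p of 0.1 (0.333 after Benjamini-Hochberg adjustment over the 10 pairs). *Lox* against *Loxl1* differed by -0.54, but the groups overlapped (exact permutation p = 0.2, adjusted 0.4), so a larger difference of *Lox* than of *Loxl1* was not shown.

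Enzyme transcripts were next set against those of their substrates, elastin (*Eln*) and the chains of collagen I and III (*Col1a1*, *Col3a1*). *Eln* was at 2531, 3550 and 1988 TPM in control and 757, 941 and 597 TPM in Prdm16SMKO libraries. It fell by 1.80 on the log2 scale (SE 0.25, adjusted p 0.0312, limma with Benjamini-Hochberg adjustment) and was the only called gene among those listed here around lysyl oxidase, but it lost the call when any control replicate, or Prdm16SMKO replicate 3, was left out. *Col3a1* went from 860 ± 61.5 to 521 ± 127 TPM (log2 fold change -0.74, SE 0.19, adjusted p 0.234, limma) and *Col1a1* from 476 ± 26.8 to 334 ± 84.8 TPM (-0.54, SE 0.19, adjusted p 0.447, limma), both with no overlap of the groups.

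Within each library, *Lox* therefore stood higher relative to *Eln* in the knockouts and lower relative to both collagens. The log2 ratio of *Lox* to *Eln* was -5.29, -5.72 and -5.04 in control and -4.91, -4.44 and -4.61 in Prdm16SMKO libraries, a difference of 0.70. That of *Lox* to *Col1a1* was -2.94, -2.86 and -2.88 in control and -3.50, -3.31 and -3.54 in Prdm16SMKO libraries, a difference of -0.56, and that of *Lox* to *Col3a1* differed by -0.36. The groups did not overlap in any of these 3 ratios. *Loxl1* against *Eln* showed the widest gap, at -4.02 ± 0.11 in control and -2.77 ± 0.13 in Prdm16SMKO libraries, a difference of 1.25 with no overlap. As *Eln* itself fell by 1.80, the mean ratio to it rises for any gene that fell less. Only 1.39% of genes tested had a fold change as low as that of *Lox* or lower, so these rises are not particular to the family. Against *Col1a1* (-0.01, exact permutation p = 0.9) and *Col3a1* (0.19, exact permutation p = 0.3) the *Loxl1* ratios overlapped. The 4 ratios without overlap each had an exact permutation p of 0.1, or 0.15 after Benjamini-Hochberg adjustment over the 6 ratios. These ratios share genes, and the share without overlap over other gene ratios was not taken.

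**Figure D4:**
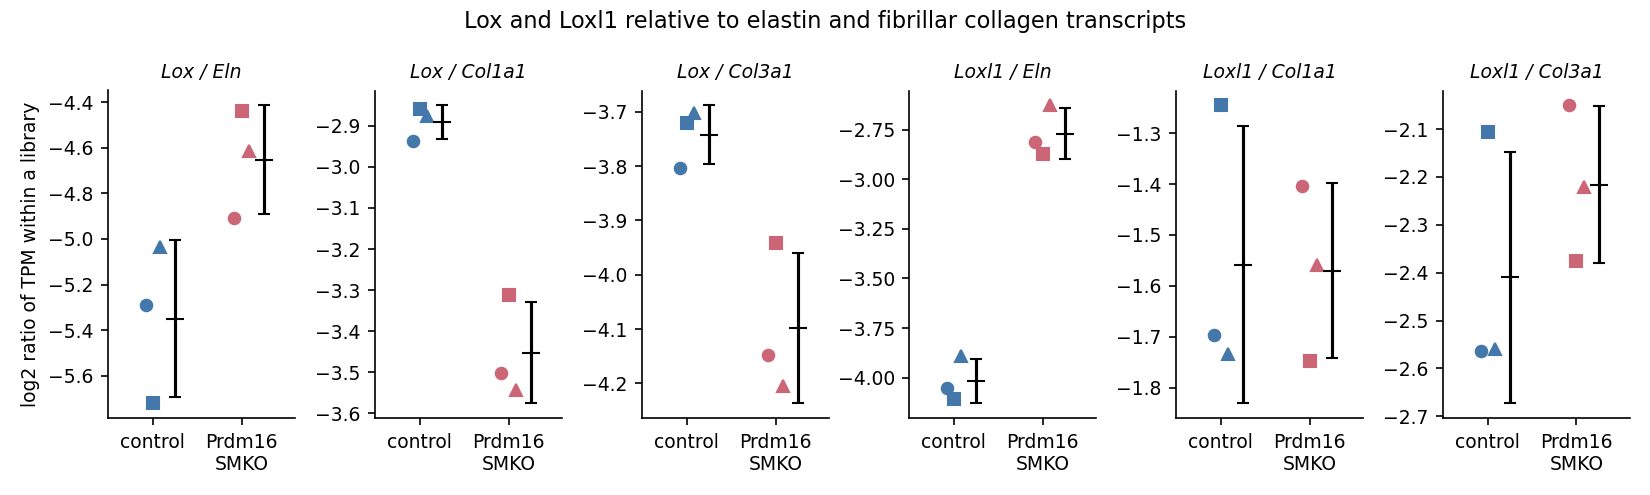
Log2 ratio of the TPM of Lox or Loxl1 to that of Eln, Col1a1 or Col3a1 within each library (y axis, own range in each panel, not starting at 0) for control and Prdm16SMKO libraries (x axis). Points are libraries, shaped by replicate number as circle 1, square 2 and triangle 3, with the mean and SD beside them; both Eln ratios are higher in all knockouts, and both Lox to collagen ratios are lower.

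The wider pathway was described with 8 lists holding 101 genes, of which 87 were tested. Of these, 55 had a fold change below 0 and 32 above 0. Over all genes tested, 45.8% lay below 0 and 54.2% above 0, which is the background for the counts of each list below. Among the 87, 1 was called (*Eln*, lower), against 0.171% of all genes tested that were called lower and 0.184% called higher. At an unadjusted p under 0.05, 16 were lower and 8 higher, against 8.74% of all genes tested in either direction. The median log2 fold change was -0.10, against 0.02 over all genes tested.

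Of 18 elastic fibre genes tested, *Eln* included, 13 lay below 0, with a median of -0.17. The microfibril-associated *Mfap4*, which binds elastic fibres, went from 319 ± 92.6 to 217 ± 30.5 TPM with no overlap (-0.53, adjusted p 0.534, limma), while *Ltbp4*, which guides elastin onto microfibrils, was at 349 and 315 TPM (-0.17, adjusted p 0.921, limma). The fibulin *Fbln5*, which tethers LOXL1 to tropoelastin, had a log2 fold change of -0.28 (adjusted p 0.845, limma) and overlapped between groups. *Efemp2*, which brings LOX to tropoelastin, had one of -0.27 (adjusted p 0.769, limma). Its groups all but touched, with 78.59 TPM in Prdm16SMKO replicate 1 and 78.65 TPM in control replicate 3. These 2 genes were picked for their role after their values were seen. *Efemp1*, a related fibulin likewise picked after its values were seen, pointed the other way, with 3.08, 4.13 and 3.73 TPM in control and 7.23, 11.42 and 7.87 TPM in Prdm16SMKO libraries (1.15, adjusted p 0.0841, limma). All 3 knockouts were above all 3 controls.

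Of 8 fibrillar collagen genes tested, 6 lay below 0 (median -0.46), and 4 had every knockout below every control, against 5.76% of all genes tested. *Col5a3*, named after its values were seen, was higher in every knockout (0.59, adjusted p 0.496, limma). *Col1a2*, the second chain of collagen I, was at 613 and 474 TPM (-0.39, adjusted p 0.663, limma) and overlapped between groups. The genes that fold and hydroxylate collagen chains before secretion had 15 of 17 members below 0, against 45.8% of all genes tested. Their median was -0.22 and none was called by limma (2 lower and 0 higher at an unadjusted p under 0.05). The collagen chaperone *Serpinh1* went from 481 ± 52.4 to 344 ± 42.1 TPM with no overlap (-0.49, adjusted p 0.410, limma). *P4hb* (-0.22) and *Ppib* (-0.10), a disulfide isomerase and a prolyl isomerase of the same compartment, overlapped between groups.

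Proenzyme processing and scaffold genes act next, since the LOX propeptide is cut off by BMP1 on a fibronectin and periostin scaffold. Of 10 tested, 7 lay below 0 and none was called (3 lower and 0 higher at an unadjusted p under 0.05). The genes of that scaffold, *Fn1* and *Postn*, were the 2 of the 10 with every knockout below every control, against 5.76% of all genes tested. *Thbs1* (0.20) and *Fmod* (-0.06), of the same list but outside the naming rule, overlapped between groups. *Fn1* was at 1378, 1655 and 1111 TPM in control and 806, 1067 and 636 TPM in Prdm16SMKO libraries (-0.74, SE 0.23, adjusted p 0.367, limma), and *Postn* went from 905 ± 223 to 588 ± 67.9 TPM (-0.60, adjusted p 0.437, limma). The procollagen C-proteinase enhancer *Pcolce* was at 63.0 and 65.1 TPM (0.04). *Bmp1* itself, outside the naming rule, was at 41.28, 39.87 and 31.71 TPM in control and 36.74, 37.05 and 30.76 TPM in Prdm16SMKO libraries (-0.10).

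Copper has to be delivered to the enzymes in the secretory pathway. The list used here covers copper handling in general, not only that route. Of 13 copper supply genes tested, 11 lay above 0, against 54.2% of all genes tested. Their median was 0.09, and none was called (1 higher and 0 lower at an unadjusted p under 0.05). The 3 most abundant, the extracellular superoxide dismutase *Sod3* (-0.07), the metallothionein *Mt1* (0.05) and the mitochondrial copper chaperone *Cox17* (0.09), differed by less than 0.1 on the log2 scale. The gene past the unadjusted threshold was *Atp7a*, the pump that loads copper into secreted enzymes including lysyl oxidase. It was at 2.37, 3.27 and 2.57 TPM in control and 8.08, 6.02 and 3.2 TPM in Prdm16SMKO libraries (0.88, adjusted p 0.441, limma), and knockout replicate 3 lay within the control range.

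Genes known to induce lysyl oxidase transcription were divided, with 8 of 15 above 0 and a median of 0.05. None was called by limma, and 3 were higher and 1 lower at an unadjusted p under 0.05. The hypoxia factor *Epas1* was higher in all knockouts (109 against 148 TPM, 0.44, adjusted p 0.482, limma), and the early growth response gene *Egr1* was lower in all knockouts (102 against 57.0 TPM, -0.86, adjusted p 0.376, limma). *Tgfb3*, a TGF-β ligand, was at 110 and 85.7 TPM (-0.35) and overlapped between groups. Other ligands, named after their values were seen, pointed the other way. *Tgfb2* was higher in every knockout (21.7 against 31.5 TPM, 0.53, adjusted p 0.379, limma), and *Tgfb1* (0.14) overlapped between groups. *Egr1* also belongs to the immediate-early genes, which respond within minutes to handling and stress. All 12 of these lay below 0 (median -1.06), against 45.8% of all genes tested, and 4 were called lower, against 0.171%, with a summed level of 739 to 1044 TPM in control and 275 to 491 TPM in Prdm16SMKO libraries. Their part in the *Lox* result was not tested.

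**Figure D5:**
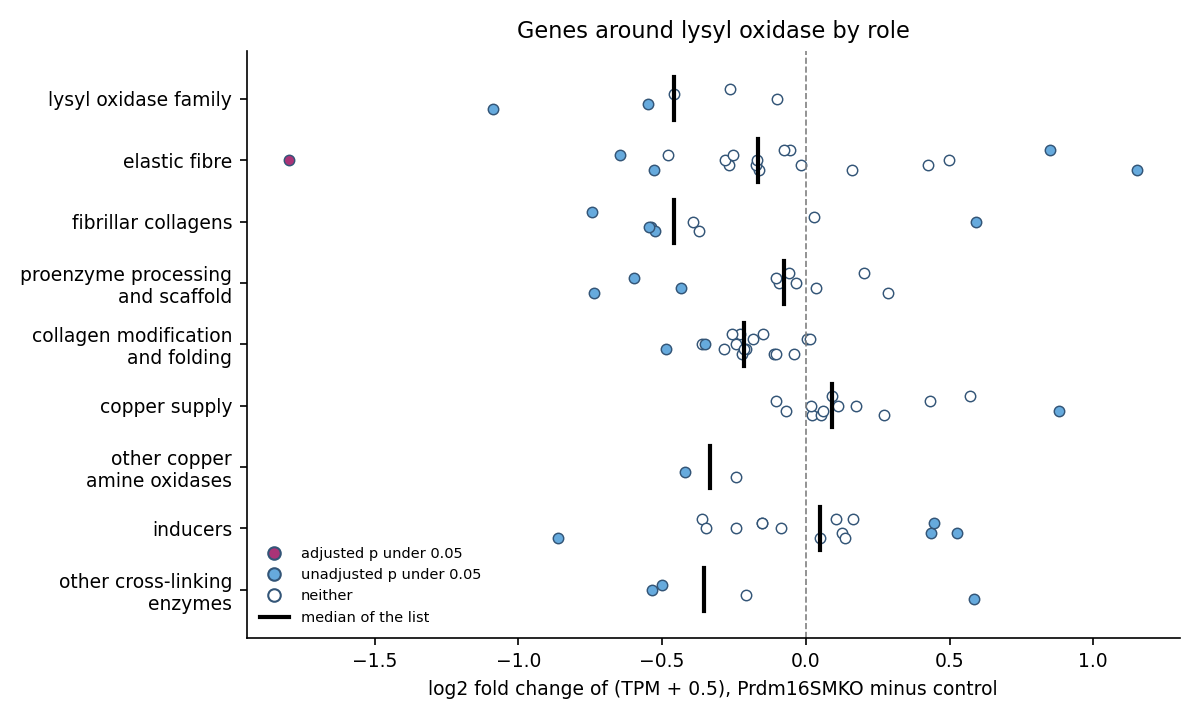
Log2 fold change of (TPM + 0.5), Prdm16SMKO minus control (x axis), of every tested gene in the family and in each of the 8 lists (y axis). Each circle is a gene, filled by whether its adjusted or unadjusted p was under 0.05, and the black bar is the median of the list; Eln at -1.80 is the only gene past the adjusted threshold, and the medians run from -0.46 to 0.09.

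The levels of *Lox* were also set against markers of the cells that make it. Summed fibroblast markers overlapped between groups (1708 to 2090 TPM in control, 1597 to 3023 TPM in Prdm16SMKO libraries). Of these genes, 9 of 10 lay above 0, against 54.2% of all genes tested, with none called and 0 at an unadjusted p under 0.05. Summed VSMC markers overlapped as well. Of those genes, 7 of 10 lay below 0, against 45.8% of all genes tested, with none called by limma. At an unadjusted p under 0.05, 2 VSMC markers were lower and 1 higher. Relative to the fibroblast sum, *Lox* was lower in every knockout than in every control (log2 ratio -4.89 ± 0.22 against -6.21 ± 0.27, a difference of -1.32, exact permutation p = 0.1). Relative to the VSMC sum it differed by -0.72 with overlap (exact permutation p = 0.2), since knockout replicate 2 lay among the controls. The corresponding differences for *Loxl1* were -0.77 and -0.17, both with overlap (exact permutation p = 0.2 and 0.7), and all 4 values were 0.5 or more after Benjamini-Hochberg adjustment over 10 ratios. The separation from the fibroblast sum was not particular to *Lox*. *Loxl4* showed it too (-0.57, exact permutation p = 0.1, adjusted 0.5), while *Loxl2* (-0.32) and *Loxl3* (-0.68) overlapped between groups.

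Markers of other cell types were described in the same way. Over all genes tested, 54.2% lay above 0 and 45.8% below 0, and 770 of 15775 were higher at an unadjusted p under 0.05. Macrophage markers lay above 0 in 10 of 10 genes, 7 at an unadjusted p under 0.05 and none called by limma. Their sum was 82.3 to 130 TPM in control and 131 to 241 TPM in Prdm16SMKO libraries. Endothelial markers lay above 0 in 8 of 10 genes (300 to 371 against 335 to 549 TPM). Adipocyte markers did so in 8 of 10 (619 to 1302 against 589 to 3257 TPM, the highest in knockout replicate 3). Both sums overlapped between groups, and none of these genes was called by limma. At an unadjusted p under 0.05, 2 adipocyte markers were higher and 0 lower, and 1 endothelial marker was higher and 1 lower. These 2, named after their values were seen, were *Vwf* (0.90), above all controls in every knockout, and *Cldn5* (-0.54), below all controls in every knockout. Chondrocyte markers had low levels, with sums of 8.37 to 13.8 TPM in control and 4.07 to 6.33 TPM in Prdm16SMKO libraries, and the knockout sums were all below the control sums. All 4 of these genes that could be tested lay below 0 (median -0.69), none was called by limma, and 2 were lower at an unadjusted p under 0.05. The part of these cells in the family's levels was not tested.

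The genes most like each member across the 6 libraries were taken from those with a mean of at least 5 TPM (9668 to 9669 genes), by Pearson's r on log2(TPM + 0.5), as a description of 6 points that share library and scaling. For *Lox* these were *Col3a1* (r = 0.995), *Erg* (0.987) and *Triqk* (0.983). *Col1a1* was close behind at 0.980 and *Loxl1* was at 0.876. For *Loxl1* they were *Zc3h14*, *Col6a2* and *Aebp1* (0.997, 0.997 and 0.995), among them a collagen VI chain. For *Loxl2* they were *Tmem184b*, *Med15* and *Tab2* (0.996, 0.995 and 0.994), for *Loxl3* *Rhoc*, *Fam160a1* and *Med31* (0.997, 0.996 and 0.996), and for *Loxl4* *Smpdl3a*, *Plxna2* and *Tpst2* (0.996, 0.992 and 0.978).

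With the group means removed, so that only the spread among mice of a group remained, *Lox* still varied with *Col1a1* (r = 0.992) and *Col3a1* (0.981), and its closest genes were *Pros1*, *Htra4* and *Smad1* (0.998, 0.993 and 0.992). The spread shared with the collagens came mostly from Prdm16SMKO replicate 2, at 43.48 TPM for *Lox*, 432 for *Col1a1* and 668 for *Col3a1*. Replicates 1 and 3 of that group had 25.19 and 24.40, 285 and 284, and 447 and 450 TPM. *Loxl1* and *Loxl2* varied together within groups (0.974), and *Loxl1* with *Eln* (0.987). Its closest genes were *Plcb1*, *Nudt22* and *Phf23* (0.9998, 0.9993 and 0.9992). *Lox* and *Loxl1* were less alike on this measure (0.636), and *Loxl3* and *Loxl4* were not (-0.17). The closest genes were *Snx33*, *Axl* and *Sgpp1* for *Loxl2*, *Gart*, *Npr2* and *Raly* for *Loxl3*, and *Plxna2*, *Ptpn14* and *Podxl* for *Loxl4*, each with r above 0.99.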

How the data were processed

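Abdominal aorta RNA of 3 control and 3 Prdm16SMKO mice was studied in 1 table of TPM values, which the authors deposited with 2 decimals for 55426 genes; reads were paired and 151 bp long. The submitters' processing notes name bcl2fastq, cutadapt 2.3, FastQC 0.11.8, STAR 2.7.8a, RSEM 1.3.3, MultiQC 1.7 and GRCm38. The annotation release is not given in the sources used here. TPM keeps no counts, so no counting error can be given, and every value is relative to the rest of its library. No library pair was identical (0 of 15).

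Groups came from the sample titles. Values were taken as log2(TPM + 0.5) for the 15775 genes averaging 0.5 TPM or more, and fitted with limma 3.58.1 in R 4.3.3 with a variance trend, equal weights and no covariate. P-values were two-sided and adjusted by Benjamini-Hochberg over all genes tested, with 0.05 as the threshold for a call. A fold change on this scale understates that of low genes. The fit was tested on simulated data. Shares and ratios were compared by exact permutation over libraries (scipy 1.17.1), two-sided. P-values measure the spread between these 6 mice.

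The members and lists were chosen with earlier results of these data known. Named were all members, the targeted gene, in each list the 3 genes highest in control and any called gene, the substrates, for each member the 3 genes most like it, and overlapping genes with a level above 0. Tried as alternatives were 11 changes of pseudocount, filter, scaling, variance model, weights and replicate term, and leaving out each of the 6 libraries. Coordinates and coding stretches came from GENCODE M21 (GRCm38), which held 55240 of the gene identifiers. Promoters, proteins and the *Lox* stretch are not shown.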

Additional observations from a re-analysis of the deposited data

How the results depend on the processing

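*Lox*, *Loxl1* and *Loxl3* stayed below 0 under all 17 alternatives. Adjusted p (limma, Benjamini-Hochberg) ranged from 0.0218 to 0.331 for *Lox*, 0.102 to 0.749 for *Loxl1* and 0.202 to 0.894 for *Loxl3*. With 1 library left out, log2 fold changes ran from -1.35 to -0.94 for *Lox*, -0.68 to -0.37 for *Loxl1*, -0.25 to 0.08 for *Loxl2*, -0.60 to -0.30 for *Loxl3* and -0.56 to 0.05 for *Loxl4*. *Loxl2* turned above 0 with limma array weights (0.067), without Prdm16SMKO replicate 3 (0.0027) and without control replicate 2 (0.0796), and *Loxl4* without Prdm16SMKO replicate 1 (0.0474). The number of members called went from 0 to 1 (*Lox*) with array weights (-1.04, adjusted p 0.0218) and without Prdm16SMKO replicate 2 (-1.35, adjusted p 0.0380), a range of 0 to 1. Array weights gave control replicate 1 a weight of 10.1 against 0.414 to 0.954 for the rest. Genes called in the pathway lists went from 1 to 0 without the filter on low values, without the variance trend and with the replicate block, to 2 with robust variances, to 6 with array weights and to 0 to 1 with a library left out. Genes called in the whole table went from 56 (51.8% higher) to 10 without the filter, 153 with size factors (39.2% higher), 129 with quantile normalization (35.7% higher), 33 without the trend, 112 with robust variances and 494 with array weights, and ran from 5 to 61 with a library left out, lowest without control replicate 2, where the median of all genes shifted to 0.11. The causes were not tested. Deviations from group means correlated between same-numbered libraries at r of -0.13, -0.11 and 0.02, and 0 of 6 libraries were closest to their own number. Differently numbered libraries ran from -0.17 to 0.24. Deviations from a mean of 3 libraries cannot show whether equal numbers mark paired mice, so pairing is not known. With the replicate block, 4 genes were called in the whole table and *Lox* had an adjusted p of 0.208 (limma, Benjamini-Hochberg). The *Lox* share and the *Lox* to *Eln* ratio kept their direction with any library left out (-8.42 to -5.56 points and 0.51 to 0.85). TPM does not give the depth of the libraries.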

Other observations

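Enzymes that cross-link matrix by other chemistry were described in the same way. The list held 8 enzymes, of which 7 were in the table and 4 could be tested, and none was called by limma (1 higher and 2 lower at an unadjusted p under 0.05). Over all genes tested, 8.74% passed that unadjusted threshold in either direction, and 5.76% had every knockout below every control. The transglutaminase *Tgm2*, which joins glutamine to lysine, was at 294.59, 416.65 and 271.85 TPM in control and 252.76, 247.58 and 188.11 TPM in Prdm16SMKO libraries (-0.50, adjusted p 0.534, limma), with every knockout below every control. *Qsox1*, a secreted sulfhydryl oxidase, had the same arrangement (134 against 90.7 TPM, -0.53, adjusted p 0.476, limma). *Pxdn*, which forms sulfilimine bonds in collagen IV, overlapped between groups (28.9 and 24.6 TPM, -0.21). *F13a1*, a transglutaminase known from macrophages and chosen after its values were seen, was higher in every knockout (0.58, adjusted p 0.502, limma), beside the higher summed macrophage markers.

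Of the other copper amine oxidases, *Aoc3*, a vascular adhesion protein of smooth muscle, endothelium and fat, was at 129.35, 162.65 and 104.06 TPM in control and 99.91, 96.40 and 94.41 TPM in Prdm16SMKO libraries (-0.42, adjusted p 0.556, limma). The knockouts lay close together below all controls. *Aoc2* was at 1.47 and 1.10 TPM and *Aoc1* was listed at 0 in all 6 libraries. The copper importer *Slc31a1*, chosen after its values were seen, stood at 21.45 TPM in Prdm16SMKO replicate 1 and between 4.14 and 7.32 TPM in the other 5 libraries, and that library also had the highest *Atp7a* level (8.08 TPM).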
